A study of Mus musculus with 15 samples.

Results

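The OAS family of mouse interferon-induced genes was followed across splenic CD4+CD25+ T cells that lacked Helios (Ikzf2), Eos (Ikzf4) or both. The family was taken as 7 listed genes, Oasl1, Oasl2, Oas1a, Oas1b, Oas1g, Oas2 and Oas3, each read from its brightest probe set in the platform annotation. Of these, 6 had a probe set of their own, among 19938 genes with 1 symbol on the array, and all 6 passed the filter on dim genes that left 10964 genes tested. Oas1g had only a probe set shared with Oas1a and is described from that shared probe set. The members were listed because Oasl2 was known to be lower in Ikzf4-/- and dKO cells on these arrays, so their differences between genotypes are given as a description.

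The arrays hold RNA of cells sorted from mouse spleen and labelled Treg, the regulatory T cells that restrain immune responses. There were 6 wild-type (WT) arrays and 3 arrays each of Ikzf4-/-, Ikzf2-/- and double Ikzf2-/-Ikzf4-/- (dKO) cells, and the labels give no further allele, agent or treatment. Whether a deletion acted in all cells, the age and sex of the mice, and whether arrays came from separate or pooled animals are not stated in the labels. P-values therefore measure the spread among these arrays, which may be technical. Ikzf4-/- and dKO were compared with WT 1 to 3, and Ikzf2-/- with WT 4 to 6, because the numbering and the exactly equal values shared within these 9 arrays, but not across to the other 6, put them in sets normalized apart.

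The OAS proteins are part of the antiviral answer to interferon. Interferon receptors act through JAK kinases, STAT proteins and IRF9 to raise OAS transcripts, and OAS enzymes that bind double-stranded RNA make short oligoadenylates that act as an antiviral second messenger. Oas1a, Oas2 and Oas3 are synthetases of this kind, built from one or more OAS units. Oasl1 and Oasl2 carry ubiquitin-like domains. Oasl1 lacks synthetase activity and is known as a brake on interferon production, whereas Oasl2 has kept the activity. Oas1b is the flavivirus resistance gene, which most laboratory strains carry in a truncated form, and RefSeq lists it as a transcribed pseudogene. All 7 members lie on mouse chromosome 5, with Oasl2 and Oasl1 next to each other and apart from the cluster of the other members.

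Promoter sequences are shown for Oasl2, the member with the largest differences from WT in Ikzf4-/-, dKO and Ikzf2-/-, and for Oas1a and Oas3, which rose and fell together from array to array. RefSeq (GRCm38.p6) gave the 250 bases before the start of 5 of the 7 members, and had no entry here for Oas2 and Oas1b. The Oasl2 window is chr5:114896684-114896933 on the plus strand, that of Oas1a is chr5:120907526-120907775 on the minus strand, and that of Oas3 is chr5:120777660-120777909 on the minus strand. Each is written 5′ to 3′ along its gene, and capitals mark matches to the interferon-stimulated response element, searched on both strands as GAAANNGAA and in a full form with a further A after it.
Oasl2: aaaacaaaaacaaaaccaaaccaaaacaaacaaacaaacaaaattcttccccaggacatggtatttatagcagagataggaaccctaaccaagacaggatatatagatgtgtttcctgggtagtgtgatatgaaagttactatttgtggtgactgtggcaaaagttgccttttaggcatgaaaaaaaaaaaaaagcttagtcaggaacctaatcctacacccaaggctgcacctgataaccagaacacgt
Oas1a: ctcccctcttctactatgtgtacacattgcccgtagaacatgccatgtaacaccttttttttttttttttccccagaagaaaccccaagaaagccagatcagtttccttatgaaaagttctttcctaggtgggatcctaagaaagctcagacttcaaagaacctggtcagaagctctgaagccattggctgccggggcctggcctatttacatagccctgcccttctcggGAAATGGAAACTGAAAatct
Oas3: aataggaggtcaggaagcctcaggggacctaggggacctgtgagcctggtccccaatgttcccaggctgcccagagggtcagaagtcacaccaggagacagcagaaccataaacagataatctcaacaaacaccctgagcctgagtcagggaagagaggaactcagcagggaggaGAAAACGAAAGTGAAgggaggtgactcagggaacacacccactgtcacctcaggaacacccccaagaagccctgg
The Oas1a window held 2 overlapping matches to the full form, starting 20 and 14 bases before the gene. In the Oas3 window 1 match to the full form began 75 bases before the start, overlapping a match to the shorter form. The Oasl2 and Oasl1 windows held none of either form, which says only that these letters are absent from these windows, and part of the Oasl1 window lies within another annotated transcript. Of 32851 promoter windows of the same length, 2.98% held the full form and 7.13% the shorter form. Of 27 windows of 22 other interferon-induced genes, 8 held the full form. The STAT motif TTCNNNGAA, found in 7.02% of all windows, occurred once in Oas1a and in no other of the 5 member windows. The Ikaros-type core TGGGAA, found in 21.6% of windows, occurred once in Oas3 and in no other of the 5. Oas2 and Oas1b had no window to search. The Oas1g window was 82.8% identical to that of Oas1a over 256 aligned positions and held 2 matches to the full form. Every other pair of the 5 windows was 41.4% to 49.1% identical.

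The sorted cells carried the Treg signature on every array. The mean log2 signal of 6 identity genes, among them Foxp3, Il2ra and Cd4, lay between 9.85 and 10.78, while of the CD8 T cell genes Cd8a lay below the median of all probe sets on all 15 arrays and Cd8b1 had a mean of 6.69. The Ikzf2 signal was 9.14 to 10.06 in Ikzf2-/- against 10.25 to 10.38 in WT 4 to 6, and 10.11 to 10.59 in dKO against 10.46 to 10.76 in WT 1 to 3. The Ikzf4 signal was not lower in the arrays labelled Ikzf4-/- (8.13 to 8.22) or dKO (8.07 to 8.20) than in WT 1 to 3 (7.83 to 8.07). The labels do not say whether these probes lie in deleted exons, so this signal does not check the genotype. B cell markers averaged 7.06 on WT 1 and 8.21 on Ikzf2-/- 3 against 4.83 to 6.70 elsewhere, and neutrophil markers 6.57 and 8.68 on these arrays against 4.29 to 6.31. The Oasl2 differences are also given without both arrays. Most other results that include these arrays are not.

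Oasl2 was the member that differed most from WT, lower without Eos and higher without Helios alone. Its log2 signal was 6.22, 5.85 and 6.01 on WT 1, 2 and 3. On the Ikzf4-/- arrays it was 4.88, 5.20 and 5.46, and on the dKO arrays 5.55, 4.78 and 5.35. All 6 of these knockout arrays lay below all 3 WT arrays, and the ranges of Ikzf4-/- and dKO overlapped. Ikzf4-/- differed from WT by -0.85 on the log2 scale (SE 0.20, 95% interval -1.27 to -0.43), or 0.555 of the WT level. The dKO differed from the same WT arrays by -0.80 (SE 0.20, interval -1.22 to -0.37), or 0.575 of the WT level. Against Ikzf4-/- the dKO differed by only 0.05 (SE 0.20, interval -0.37 to 0.47). These comparisons share arrays, the first and second through WT 1 to 3, so they are not separate evidence for each other. In such bulk samples, fewer cells that express a gene and less RNA per cell cannot be told apart.

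In the other set of arrays Oasl2 stood the other way round. It read 4.78, 4.55 and 4.95 on WT 4, 5 and 6 and 5.15, 5.52 and 5.50 on the Ikzf2-/- arrays. All 3 Ikzf2-/- arrays were thus above all 3 WT arrays, by 0.63 on average (SE 0.20, interval 0.21 to 1.06), a fold of 1.55. The WT mean of 4.76 lay under the filter value of 4.96, in the dim range where the authors' normalization compresses differences. As a position on its array, Oasl2 stood at percentile 60.8 to 64.9 of all probe sets on WT 1 to 3 and at 48.9 to 55.8 on Ikzf4-/-. It stood at 47.1 to 57.5 on dKO, 43.3 to 49.7 on WT 4 to 6 and 53.8 to 59.8 on Ikzf2-/-.

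**Figure D1:**
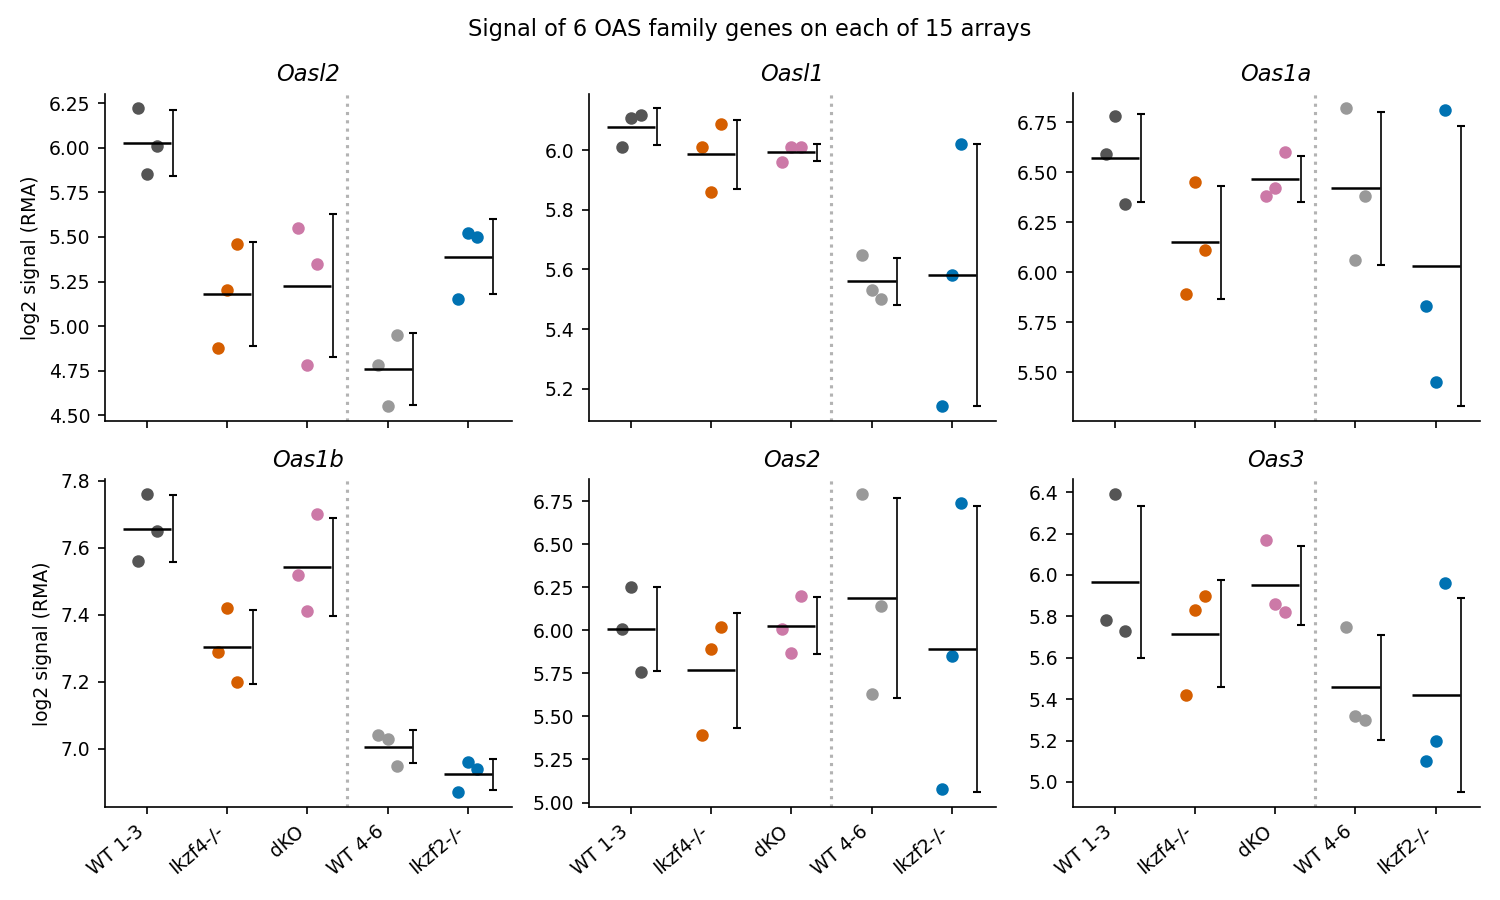
Log2 signal (vertical axis) of 6 OAS family genes by group (horizontal axis): points are single arrays, lines the means of 3 arrays, bars the SD, and the dotted line parts the 2 sets of arrays. Oasl2 is at 5.85 to 6.22 on WT 1 to 3 and at 4.78 to 5.55 on the Ikzf4-/- and dKO arrays, whereas Oas2 is at 5.39 to 6.25 over the same 9 arrays with overlapping groups.

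The WT cells themselves differed in Oasl2 between the sets. WT 4 to 6 were at 4.76 ± 0.20 (SD, n = 3) and WT 1 to 3 at 6.03 ± 0.19 (SD, n = 3), a log2 difference of -1.27 (SE 0.20, limma, Benjamini-Hochberg adjusted p = 0.000138). The median of all genes tested was also lower in WT 4 to 6, by -0.38, and 58.6% of genes were called lower. Among the members, 3 of 6 passed in this comparison, all lower, against 64.2% of all genes in either direction. They were Oasl2, Oas1b (-0.65, adjusted p = 5.72e-05) and Oasl1 (-0.52, adjusted p = 0.0104). Of all genes, 104 of 10964 had a lower difference than Oasl2. The sets were normalized apart, so a change of run and a difference between the mice cannot be told apart. The order of Oasl2 group means over both sets was WT 4 to 6 (4.76), Ikzf4-/- (5.18), dKO (5.23), Ikzf2-/- (5.39) and WT 1 to 3 (6.03). The arrays of Ikzf4-/-, dKO and Ikzf2-/- overlapped. Ikzf4-/- (from 4.88) and dKO (from 4.78) also reached into the range of WT 4 to 6 (4.55 to 4.95). When all 6 WT arrays were pooled, the Oasl2 difference was -0.22 for Ikzf4-/-, -0.16 for dKO and 0.00 for Ikzf2-/-, so its size rests on the WT arrays of the own set.

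Oas1b, the flavivirus resistance gene, was the other member with groups that did not overlap. It read 7.56, 7.76 and 7.65 on WT 1 to 3 and 7.29, 7.42 and 7.20 on Ikzf4-/-, a difference of -0.35 (SE 0.09). The dKO arrays read 7.52, 7.41 and 7.70, within reach of WT, and differed from it by -0.12 (SE 0.09). WT 4 to 6 read 7.04, 7.03 and 6.95 and Ikzf2-/- 6.87, 6.96 and 6.94, a difference of -0.08 (SE 0.09) with overlapping arrays. With all 6 WT arrays pooled, the Ikzf4-/- difference of Oas1b was -0.03.

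The synthetases Oas1a, Oas2 and Oas3 overlapped between genotypes in all 4 comparisons. Oas1a ranged from 6.34 to 6.78 on WT 1 to 3, from 5.89 to 6.45 on Ikzf4-/- and from 6.38 to 6.60 on dKO. Its differences were -0.42 for Ikzf4-/- against WT, -0.10 for dKO against WT and 0.32 for dKO against Ikzf4-/- (SE 0.28 each). Oas2 ranged from 5.76 to 6.25 on WT 1 to 3, and its differences in the same order were -0.24, 0.02 and 0.26 (SE 0.35). The level of Oas3 was 5.73 to 6.39 on WT 1 to 3, with differences of -0.25, -0.02 and 0.23 (SE 0.23). All 3 genes thus had a lower mean in Ikzf4-/- than in WT and dKO, with overlapping arrays. Between same-numbered arrays, Ikzf4-/- was below WT in 3 of 3 pairs for Oas1a (-0.70, -0.33 and -0.23), and in 2 of 3 pairs for Oas2 and for Oas3. Without Ikzf4-/- 1 the Ikzf4-/- difference of Oas2 was -0.05, and dKO exceeded Ikzf4-/- by 0.18 in Oas1a, 0.07 in Oas2 and 0.09 in Oas3. Without WT 2 the Ikzf4-/- difference of Oas3 was -0.04, and dKO differed from WT by 0.00 in Oas1a, 0.15 in Oas2 and 0.19 in Oas3.

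In the set with Ikzf2-/- these synthetases varied widely within each genotype. Oas1a read 6.82, 6.06 and 6.38 on WT 4, 5 and 6 and 5.83, 5.45 and 6.81 on the Ikzf2-/- arrays. Oas2 read 6.79, 5.63 and 6.14 on these WT arrays and 5.08, 5.85 and 6.74 on the Ikzf2-/- arrays. WT 4 and Ikzf2-/- 3 were the highest of their groups for both genes and for Oas3. The differences of Ikzf2-/- from WT were -0.39 (SE 0.28) for Oas1a, -0.30 (SE 0.35) for Oas2 and -0.04 (SE 0.23) for Oas3. Ikzf2-/- 3 was also the array highest in B cell and neutrophil markers, whose part in these values was not tested. Single Ikzf2-/- arrays decided these values. Without Ikzf2-/- 3 Oas1a differed by -0.78, Oas2 by -0.72 and Oas3 by -0.31. Without Ikzf2-/- 1 Oas2 was at 0.11 and Oas3 at 0.12, and without Ikzf2-/- 2 Oas1a was at -0.10.

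Oasl1, the family's brake on interferon production, differed by no more than 0.09 in size in the 4 comparisons of genotypes. It read 6.01, 6.11 and 6.12 on WT 1 to 3, 6.01, 5.86 and 6.09 on Ikzf4-/- and 5.96, 6.01 and 6.01 on dKO, so that Ikzf4-/- and dKO each differed from WT by -0.09 (SE 0.16). Exactly the same value occurred on 3 of these 9 arrays, and how such ties arose was not tested. On WT 4 to 6 it was 5.50 to 5.65 and on Ikzf2-/- 5.14 to 6.02, a difference of 0.02 (SE 0.16). The 95% interval of its Ikzf4-/- difference ran from -0.43 to 0.24, and whether it differed from that of Oasl2 was not tested.

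The probe set shared by Oas1a and Oas1g had a lower mean in each knockout than in its own WT, with overlapping arrays. It read exactly 6.14 on 5 of the 9 arrays of the first set, including all 3 Ikzf4-/- arrays, and its group means were 6.17 for WT 1 to 3, 6.14 for Ikzf4-/- and 6.03 for dKO. In the other set they were 6.61 for WT 4 to 6 and 6.25 for Ikzf2-/-. Of 5 further Oas genes listed, Oas1d, Oas1e, Oas1f and Oas1h were too dim to be tested. The remaining one, Oas1c, differed by 0.04 in both Ikzf4-/- and dKO and by -0.26 in Ikzf2-/- (SE 0.10 each). Its arrays lay wholly above WT in dKO and wholly below WT in Ikzf2-/-. The shares of all genes that did so are not given here, so nothing is read from this. In Ikzf2-/- the unadjusted limma p of Oas1c was 0.0219 (adjusted p = 0.218), where 16.4% of all genes were under 0.05.

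**Figure D2:**
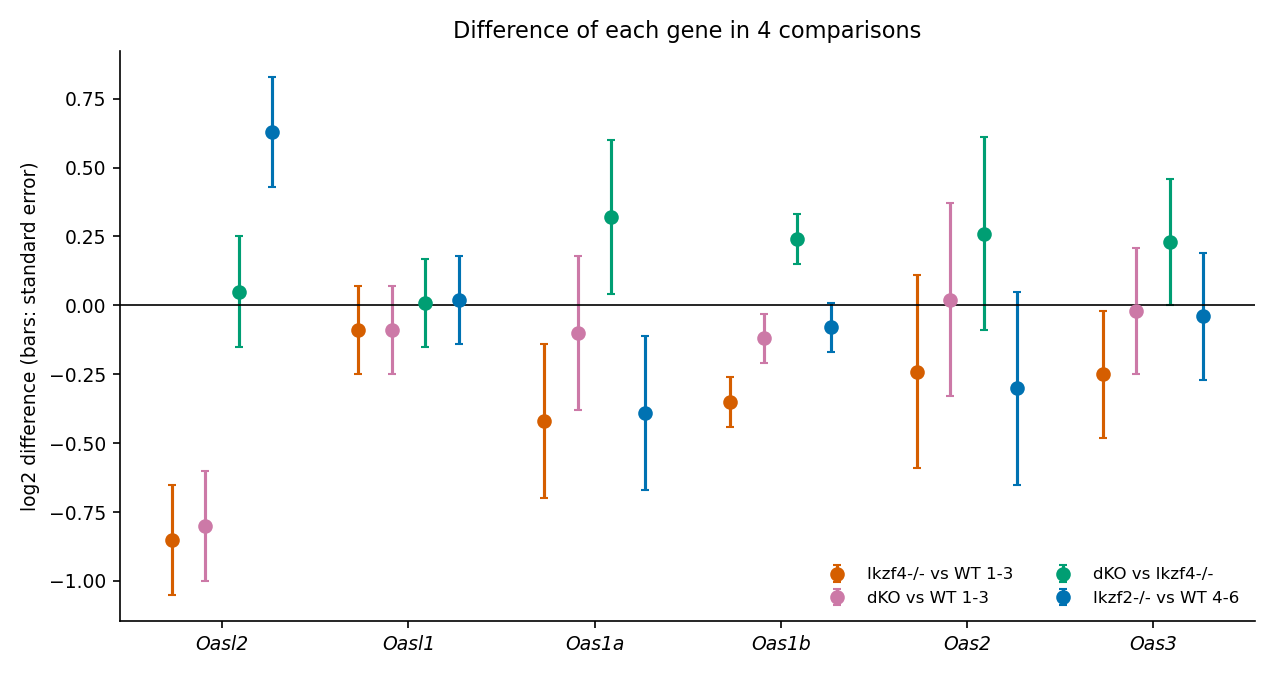
Log2 difference (vertical axis, bars are standard errors) of each of 6 OAS family genes (horizontal axis) in 4 comparisons. Oasl2 is at -0.85 and -0.80 for Ikzf4-/- and dKO against WT and at 0.63 for Ikzf2-/- against WT, while Oasl1 lies between -0.09 and 0.02 in all 4.

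Over the family, 6 of 6 members had negative differences in Ikzf4-/- against WT, with a median of -0.30, where 47.1% of all genes were negative. In dKO against WT 5 of 6 were negative, with a median of -0.10, where 48.2% of all genes were negative. In dKO against Ikzf4-/- 6 of 6 were positive, with a median of 0.24, where 50.6% of all genes were negative. This comparison and that of Ikzf4-/- against WT use the same Ikzf4-/- arrays from opposite sides. In Ikzf2-/- against WT 4 members were negative and 2 positive, with a median of -0.06, where 45.5% of all genes were negative. None of the 6 passed limma's test at an adjusted p of 0.05 in any of these comparisons. Of all genes, 0% were called in Ikzf4-/- against WT, 0.0638% in dKO against WT, 0.0274% in dKO against Ikzf4-/- and 0.0638% in Ikzf2-/- against WT. At an unadjusted p of 0.05 the members numbered 2, 1, 1 and 1 in that order, against 2.18%, 4.38%, 3.48% and 16.4% of all genes. Because the members were chosen on these comparisons, nothing is read from these counts.

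Groups without overlap were counted in the same way. Below all WT arrays in Ikzf4-/- were 2 of 6 members, Oasl2 and Oas1b, against 2.92% of all genes, and in dKO 1 of 6, Oasl2, against 4.22%. Above all WT arrays in Ikzf2-/- was 1 of 6, Oasl2, against 10.7% of all genes. Between dKO and Ikzf4-/- every member overlapped, where 4.19% of all genes lay wholly lower and 4.09% wholly higher in dKO. Lying below WT on all Ikzf4-/- and dKO arrays was shared by 113 genes, or 1.03% of those tested. Lying below WT in both Ikzf4-/- and dKO and above WT in Ikzf2-/- was shared by 10 of 10964 genes, or 0.0912%. Besides Oasl2 these were Arid3b, Atp5g3, Cyp4f16, Cyth3, Rbm48, Septin11, Srek1ip1, Ublcp1 and Uckl1, named here after their values were seen. The next most different of them, Cyp4f16, had differences of -0.43, -0.19 and 0.54.

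Whether losing Helios moved a member differently in the presence and absence of Eos was asked by setting dKO against Ikzf4-/- beside Ikzf2-/- against WT. None of the 6 members passed limma's test of that difference (0% of all genes called). At an unadjusted p of 0.05 1 member passed, Oas1b, against 6.29% of all genes. For Oasl2 the difference was -0.58 (SE 0.28, limma, Benjamini-Hochberg adjusted p = 0.781). For Oas1b it was 0.32 (SE 0.13, adjusted p = 0.775 in the same limma fit).

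The 25 other interferon-induced genes tested had differences nearer 0 than Oasl2 in the cells labelled Ikzf4-/- and dKO, though Eif2ak2, an interferon-induced gene listed among the sensors, had a dKO difference of -0.86. Of 30 listed, 25 were tested and none passed limma's test in any of the 4 comparisons. At an unadjusted p of 0.05 1 passed in Ikzf4-/- against WT (Ifitm3), 3 in dKO against WT (Ifitm3, Isg20 and Samd9l), 2 in dKO against Ikzf4-/- (Ifitm3 and Isg20) and 2 in Ikzf2-/- against WT (Ifitm3 and Ddx60). The shares of all genes were 2.18%, 4.38%, 3.48% and 16.4% in that order. The median difference of the 25 was -0.10 in Ikzf4-/- against WT, with 21 of 25 negative, and -0.02 in dKO against WT, with 14 negative and 11 positive. In dKO against Ikzf4-/- it was 0.09, with 21 of 25 positive. Of all genes, 47.1%, 48.2% and 50.6% were negative in these comparisons, in the same order. In both comparisons with WT 1 to 3, all 25 lay above Oasl2, as nearly all genes did. Of the 10964 tested, 31 had a lower difference than Oasl2 in Ikzf4-/- and 32 in dKO. Oasl2 was listed for its fall in these comparisons, so nothing is read from its place below the 25. The nearest of the 25 in Ikzf4-/- was Ifitm3, a membrane protein that blocks viral entry, at -0.69 (SE 0.29). It was at 0.67 (SE 0.29) in dKO against WT, so that dKO exceeded Ikzf4-/- by 1.36, and at 1.02 (SE 0.29) in Ikzf2-/- against WT. Oasl2 differed by 0.05 between dKO and Ikzf4-/-. The next largest in Ikzf4-/- were Ifit1, which binds viral RNA, at -0.33 (SE 0.36), Rtp4 at -0.27 (SE 0.25), Lgals3bp at -0.23 (SE 0.23) and Trim30a at -0.20 (SE 0.11). In dKO they were the exonuclease gene Isg20 at 0.42 (SE 0.17), Ifit1 at -0.34 (SE 0.36), Ifit3 at -0.25 (SE 0.50) and Ifit2 at 0.24 (SE 0.11). In Ikzf2-/- against WT the median of the 25 was -0.02, and only Ifitm3 had a larger positive difference than Oasl2.

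**Figure D3:**
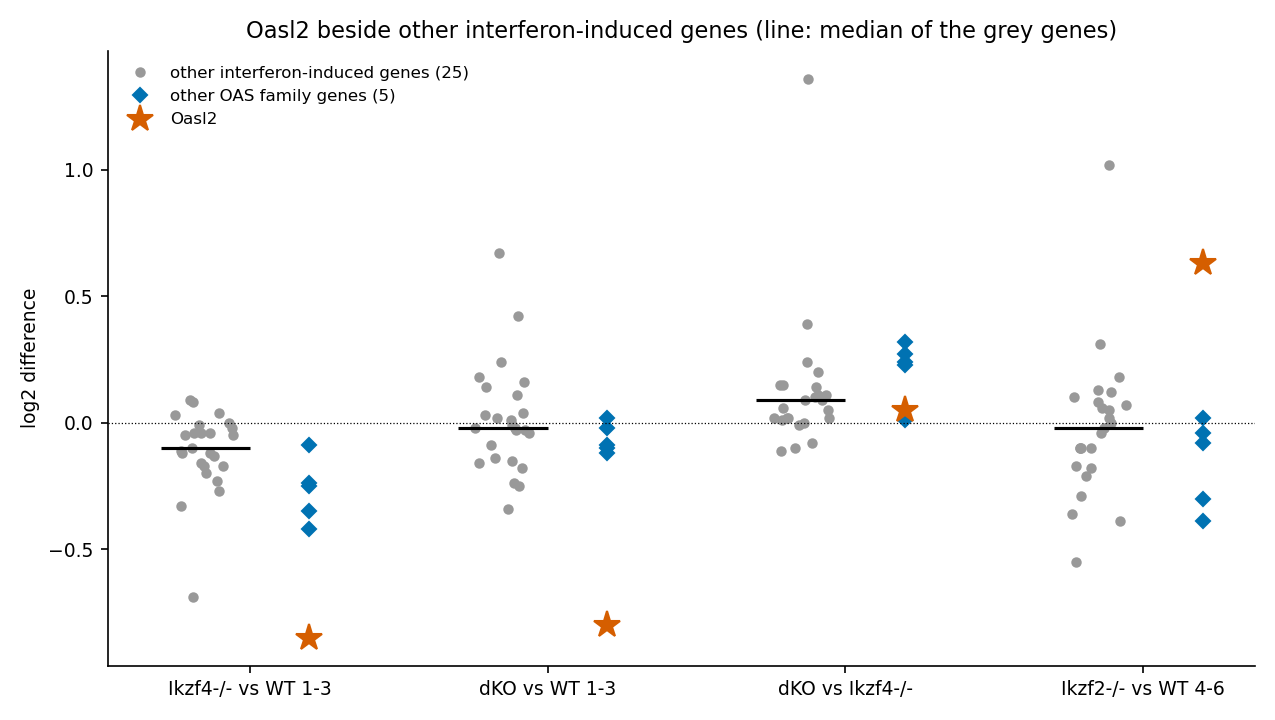
Log2 difference (vertical axis) in 4 comparisons (horizontal axis) of 25 other interferon-induced genes (grey points, line at their median), 5 OAS family genes (blue diamonds) and Oasl2 (orange star). In Ikzf4-/- and dKO against WT the star lies at -0.85 and -0.80, under all grey points, whose medians are -0.10 and -0.02. Of the 10964 genes tested, 31 and 32 had lower differences than Oasl2 in these comparisons.

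No listed gene of the steps before or after OAS induction passed limma's test at an adjusted p of 0.05. At an unadjusted p of 0.05 Eif2ak2 passed in dKO against WT, and Mavs and Irf8 in Ikzf2-/- against WT. Of all genes, 4.38% and 16.4% passed in these comparisons. None of the 7 receptor and kinase genes tested passed limma's threshold in the 4 comparisons, and the 3 brightest, Jak1, Ifnar2 and Ifngr1, differed by -0.14 to 0.13. Of 9 STAT and IRF genes 8 were tested, none passed, and their median was -0.19 in Ikzf4-/- and -0.07 in dKO. The brightest of these transcription factors, Irf2, differed by -0.07 to 0.00 and Irf1 by -0.17 to -0.01. Irf3, a factor that drives interferon genes once viral nucleic acid is sensed, differed by 0.07 to 0.18. The dimmer Irf8, named here after its value was seen, differed by -0.35 in Ikzf4-/-, -0.03 in dKO and 0.58 in Ikzf2-/- against WT (SE 0.20 each). Of 8 sensors of viral nucleic acid 7 were tested and none passed. The RNA helicase gene Ddx58 differed by -0.15 to 0.04, Mavs by 0.04 to 0.26 and Zbp1 by -0.12 to 0.12. Eif2ak2, the kinase PKR that double-stranded RNA activates, had the largest difference of these sensors in dKO against WT, -0.86 (SE 0.27, limma, Benjamini-Hochberg adjusted p = 0.724), with overlapping arrays, and is named here after its value was seen. Abce1, a protein of ribosome recycling listed with the oligoadenylate pathway, differed by -0.05 to 0.09, and Pde12, which degrades the oligoadenylates, by -0.05 to 0.13.

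From array to array the synthetases moved together, while r with them was lower for Oasl2 and Oas1b, a difference that was not tested. Taking each array's deviation from its group mean, Pearson's r over 15 arrays was 0.80 between Oas1a and Oas2, 0.78 between Oas1a and Oas3 and 0.82 between Oas2 and Oas3. Over the 12 arrays without Ikzf2-/- it was 0.90, 0.65 and 0.72. Oasl2 had r of 0.06 to 0.48 with the other members over 15 arrays and of -0.11 to 0.42 over 12. For Oas1b r with the synthetases was 0.26 to 0.29 over 15 arrays and 0.25 to 0.44 over 12. Against the mean of the 25 other interferon-induced genes, r over 15 arrays was 0.91 for Oas2, 0.90 for Oas3, 0.84 for Oas1a, 0.67 for Oasl1, 0.38 for Oas1b and 0.33 for Oasl2. Over 12 arrays that of Oasl1 was 0.17 and that of Oasl2 0.25, while Oas2, Oas3 and Oas1a were at 0.83 to 0.84. These values share arrays and their normalization and are given as a description.

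**Figure D4:**
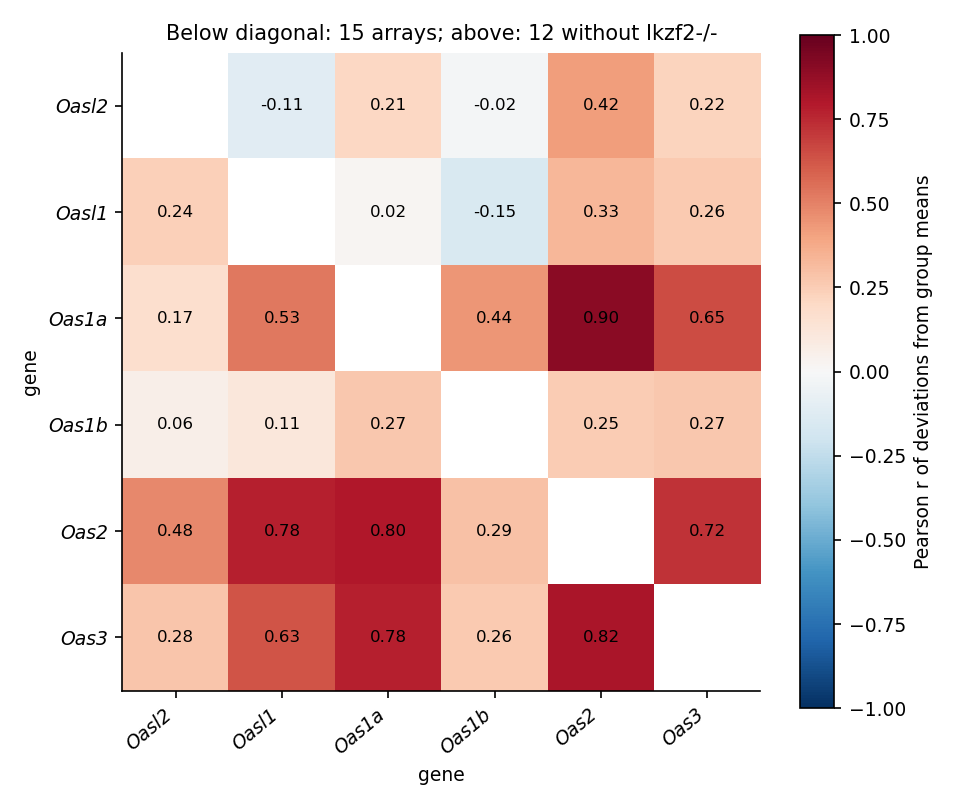
Pearson's r between 6 OAS family genes (both axes) of deviations from group means, over 15 arrays under the diagonal and over 12 arrays without Ikzf2-/- over it. Oas1a, Oas2 and Oas3 form a block of 0.65 to 0.90, and the values of Oasl2 run from -0.11 to 0.48.

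The genes most like the members in level over the arrays also differed. With each set of arrays centred on its own mean, the 5 genes with the highest r to Oasl2 over 15 arrays were Stau1 (0.87), Rplp0 (0.84), Cd68 (0.78), Srfbp1 (0.78) and Ppp1r9b (0.76), none of them an interferon-induced gene of the lists. Their differences were -0.36 to -0.13 in Ikzf4-/-, -0.41 to -0.09 in dKO and 0.14 to 0.45 in Ikzf2-/-, smaller than those of Oasl2. The centring kept the differences between genotypes, so the signs of these values follow in part from the choice by r. The genes most like the mean of the other members were Rsad2 (0.93), Rnf213 (0.88), Ifi27l2a (0.88), Mx1 (0.87) and Slc12a9 (0.86). Rsad2 and Mx1 encode antiviral proteins and, like Ifi27l2a, were among the listed interferon-induced genes. Oasl2 ranked 2506 in that order, with r of 0.25.

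Cd68 is also a macrophage marker, but it was picked here by its r to Oasl2, so its differences are not separate evidence. The 3 of 7 macrophage and dendritic cell markers tested had differences of the same sign as Oasl2 in Ikzf4-/-, dKO and Ikzf2-/- against WT. Over 7 such genes the mean log2 signal was 4.63 to 5.20 on WT 1 to 3, 4.27 to 4.63 on Ikzf4-/- and 4.52 to 4.81 on dKO. It was 4.65 to 4.94 on WT 4 to 6 and 4.90 to 5.35 on Ikzf2-/-. Of the 7, Itgax, Adgre1, Fcgr1 and Clec9a lay below the probe set median on all 15 arrays, and 3 were tested. Lyz2, the macrophage and neutrophil lysozyme, differed by -2.13 in Ikzf4-/-, -1.18 in dKO and 1.52 in Ikzf2-/- (SE 0.76), and Csf1r by -0.53, -0.37 and 0.20 (SE 0.15). Cd68 differed by -0.36, -0.41 and 0.45 (SE 0.15), and none of the 3 passed limma's threshold. At an unadjusted p of 0.05 all 3 passed in Ikzf4-/-, Csf1r and Cd68 in dKO, and Cd68 in Ikzf2-/-. Of all genes, 2.18%, 4.38% and 16.4% did so, in the same order. Among 4 plasmacytoid dendritic cell markers measured Siglech, and among 4 NK cell markers Ncr1, Klrb1c and Klra8, lay below that median on every array. The others of these lists had mean log2 signals of 7.40 (Pacsin1), 6.07 (Ccr9), 5.81 (Cox6a2) and 6.36 (Eomes). At an unadjusted p of 0.05 in the limma fit Pacsin1 passed in dKO against WT, at -0.21, and Pacsin1 and Ccr9 in dKO against Ikzf4-/-, at -0.21 and -0.52. Of all genes, 4.38% and 3.48% passed in these comparisons. The median difference of 7 B cell markers was -0.62 in Ikzf4-/-, -0.77 in dKO and 0.92 in Ikzf2-/-, and that of 7 neutrophil markers -0.70, 0.00 and 1.91. At an unadjusted p of 0.05 in the limma fit 6 of the 7 neutrophil markers passed in Ikzf2-/- against WT, and no B cell marker did. Without WT 1 and Ikzf2-/- 3, the arrays highest in B cell markers, Oasl2 differed by -0.75 in Ikzf4-/-, -0.70 in dKO and 0.58 in Ikzf2-/-. Leaving out Ikzf2-/- 3 did not remove the neutrophil excess. The neutrophil mean was 6.31 and 5.71 on Ikzf2-/- 1 and 2, against 4.79 to 5.33 on WT 4 to 6. The part of all these cell markers in the Oasl2 differences was not tested.

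The genes beside the OAS loci did not pass limma's test in any of the 4 comparisons of genotypes. Of the 10 tested, 1 passed an unadjusted p of 0.05 in dKO against WT (Acads), 1 in dKO against Ikzf4-/- (2610524H06Rik) and 1 in Ikzf2-/- against WT (Dtx1). The shares of all genes were 4.38%, 3.48% and 16.4% in that order. Around Oasl2 and Oasl1 the nearest measured protein-coding genes in RefSeq order were 4930519G04Rik, too dim to be tested, 2610524H06Rik and Ankrd13a on one side and 2210016L21Rik, Sppl3 and Acads on the other. Acads, a mitochondrial enzyme of fatty acid oxidation, differed by -0.20 in Ikzf4-/-, -0.33 in dKO and -0.11 in Ikzf2-/- (SE 0.09), and 2610524H06Rik by -0.29 in Ikzf4-/- (SE 0.15). Around the cluster of the other members, Dtx1, Rasal1 and Ddx54 on one side and Ptpn11 and Rpl6 on the other differed by -0.14 to 0.12 in Ikzf4-/- and dKO against WT. Rph3a was too dim to be tested.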

How the data were processed

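RNA of sorted splenic CD4+CD25+ cells was measured on 15 single-colour Affymetrix arrays, from 15 ng of total RNA each amplified with NuGEN kits, per the labels' protocols. The values the authors deposited are log2 signals of 35556 probe sets, made with RMA in Affymetrix Expression Console 1.3.1, per the submitters' processing notes. This method corrects background and quantile-normalizes arrays run together, which compresses differences of dim genes. As to the array's genome build, none was given in the sources used here. Array medians lay between 4.82 and 5.01. Exactly equal values averaged 2286 probe sets per pair within WT 1 to 3, Ikzf4-/- and dKO, 34.4 within WT 4 to 6 and Ikzf2-/-, and 0.0741 across, so knockouts were compared with WT of their own set.

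Of the probe sets, 21789 had 1 symbol (21698 updated through RefSeq), 1621 several and 12146 none. The brightest probe set stood for a gene. Genes with any group mean above the median of probe set means (4.96), 10964 in all, entered limma 3.58.1 in R 4.3.3 (lmFit, eBayes, 5 group means, 10 residual and 3.72 prior degrees of freedom), with Benjamini-Hochberg adjustment at 0.05. The procedure was tested on simulated data. The number of arrays limits the precision.

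Members and lists were chosen with earlier results of these data known. Named were all members, list genes past the threshold, otherwise the 3 brightest genes of a list, the 5 interferon-induced genes with the largest difference in Ikzf4-/- and in dKO, the 3 nearest measured neighbours per side and the 5 most alike genes. Others are said to be named after their values were seen. Promoters came from RefSeq GRCm38.p6. Alternatives were filters, scalings, array weights, probe set means, pooled WT, a replicate block and arrays left out.

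Same-numbered arrays deviated from their group means together between WT and Ikzf4-/- (r of 0.138, 0.217 and 0.303) and between Ikzf4-/- and dKO (0.428, 0.196 and 0.267). No label states a pairing. The main fit did not use it, so the SEs, intervals and p-values in the Results are unpaired. Pairing entered only the alternative run with a replicate block. For WT with dKO r was 0.071, 0.045 and 0.173.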

Additional observations from a re-analysis of the deposited data

Results flagged for a closer look

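The log2 difference of Oasl2 in Ikzf4-/- from its WT arrays, less that in Ikzf2-/- from its own WT arrays, was -1.48 (SE 0.28), every knockout array lying below WT in the former and above WT in the latter, though the test of this difference did not pass (limma, Benjamini-Hochberg adjusted p = 0.245, and 0.076 to 0.302 over 5 other settings, those without a filter, with other scalings, with array weights and with probe set means). The same contrast for dKO was -1.43 (SE 0.28, adjusted p = 0.585 by limma), again with every array on opposite sides of WT. Both share the WT 4 to 6 and Ikzf2-/- arrays and were set up after the data were seen.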

How the results depend on the processing

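No member was called in any comparison of genotypes under any alternative run. Of the values for Oasl2, the family medians and the counts called, 318 were labelled the same and 6 moved. Differences and medians were judged against the spread of the arrays, and counts by whether they changed. Many of these values could not move, since leaving out an array outside a comparison returns the same difference. The tally is therefore no measure of robustness. With all 6 WT arrays pooled, the Oasl2 difference was -0.22 in Ikzf4-/-, -0.16 in dKO and 0.00 in Ikzf2-/-, and the family median -0.12 in Ikzf4-/- and 0.07 in dKO, which by construction mixes sets normalized apart. Leaving out single arrays gave Oasl2 differences of -0.99 to -0.70 for Ikzf4-/-, -0.96 to -0.57 for dKO, -0.11 to 0.27 for dKO against Ikzf4-/- and 0.53 to 0.75 for Ikzf2-/-. The family median then ran from -0.37 to -0.20, from -0.13 to -0.03, from 0.08 (without Ikzf4-/- 1) to 0.29, and from -0.25 to 0.11 (without Ikzf2-/- 1). With the replicate block over the 9 arrays of the first set, the Oasl2 differences were the same and the paired fit changed no call (limma adjusted p = 0.78 for Ikzf4-/-, 0.329 for dKO and 0.983 for dKO against Ikzf4-/-). Of all genes, that fit called 4 in dKO against WT, where the same 9 arrays without the block gave 6 and all 15 arrays 7. Of the remaining single-gene values, 14 of 694 moved, with the same limit. The stricter filter left out Oasl1, Oasl2 and Oas3, which then have no value. The WT 4 to 6 difference of Oasl2 from WT 1 to 3 was called under every setting run (-1.36 to -1.16). Oasl2 near the probe set median is the limit that signal sets here, since dim differences are compressed.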
